A study of Mus musculus with 23 samples.

Results

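Mouse epiblast-like cells raised the genes described here when they were cultured without added BMP4 or Wnt3a, in a line that lacks the signalling protein WNT3 and in a line that has it. Epiblast-like cells are a culture model of the epiblast shortly before gastrulation. The members were chosen by measured values: log2(signal + 16) at 36 h had to exceed that at 0 h by at least 1.5 in untreated Wnt3-/- cells (KO) and in untreated Wnt3+/+ cells (WT), with a signal above 200 on some array. Symbols that begin with any of 16 prefixes of large gene families, such as Wnt, Bmp, Hox and Krt, were dropped, which removed 10 of 115 genes. This left 105 of the 18194 genes that a probe set names alone. A rise of that size was seen for 194 genes in KO and for 319 in WT, each line taken by itself, and 72 genes fell by as much in both.

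The data were 23 Affymetrix mouse genome arrays, 1 for each line, condition and time. KO cells were taken after 12, 24 and 36 h with BMP4 and Wnt3a together, with Wnt3a (50 ng/ml), with BMP4 (500 ng/ml) or with neither. WT cells were taken at the same times with Wnt3a, with BMP4 or with neither, and each line also gave 1 array at 0 h. Both lines are male C57BL/6 embryonic stem cells with a transgene in which Blimp1 regulatory elements drive membrane-bound Venus. All had first been made into epiblast-like cells with activin A and bFGF, and all later samples were floating aggregates in a medium with serum replacement and LIF. Untreated here means without BMP4 and Wnt3a, and cytokine means these proteins and not LIF. Each genotype is a single line, so genotype and line cannot be told apart.

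No condition had a replicate at any time. Wnt3 gave signals of 11.2 to 27.9 on the 13 KO arrays and 10.4 to 146 on the 10 WT arrays, and Pou5f1, which marks pluripotent cells, stayed at 5914 or more on all of them. Labels of 6 KO arrays conflict: those titled Wnt3a carry array names with both cytokines, and those titled BMP4+Wnt3a carry names with Wnt3a alone. Id1, a direct target of BMP signalling, went against the titles, with 5480.2, 7591 and 9345 at 12, 24 and 36 h in KO titled Wnt3a and 186, 256 and 1323 in KO titled BMP4+Wnt3a. The titles are kept and marked as "titled", and exchanging them exchanges the results of these groups against untreated KO. The ratio of 3' to 5' Gapdh signal, a sign of RNA quality, was 2.68 in untreated KO at 24 h, 4.03 in WT with Wnt3a at 24 h and 2.30 in untreated WT at 36 h, against 1.09 to 1.71 on the other 20 arrays. The untreated WT array at 36 h is among the 4 that chose the members.

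When epiblast-like cells are moved out of activin and bFGF into aggregates, they leave the signals that keep them in a primed pluripotent state. BMP4 acts through SMAD proteins and Wnt3a through beta-catenin, and both take part in the induction of mesoderm and of germ cells. Trh encodes the precursor of thyrotropin-releasing hormone, a peptide best known from the hypothalamus. Nanog is a homeodomain factor of pluripotent cells, Actc1 and Acta1 encode sarcomeric actins, and Cyp26a1 encodes an enzyme that breaks down retinoic acid.

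The promoters of 5 members are shown because their signals took different courses, described further on. Each runs from 250 bases before to 50 bases after the start in RefSeq (GRCm38.p6): chr6:92244601-92244900 on the minus strand for Trh, chr6:122707239-122707538 on the plus strand for Nanog, chr19:37697558-37697857 on the plus strand for Cyp26a1, chr8:123894726-123895025 on the minus strand for Acta1 and chr2:114052826-114053125 on the minus strand for Actc1. Capitals mark TGACG, the core of a cyclic AMP response element, read on the other strand as CGTCA in Trh. They mark TTTGCAT, part of the octamer motif of POU factors, and the SOX motif ACAATG in Nanog, a retinoic acid DR5 element in Cyp26a1, and a CArG box, the motif of serum response factor, in Acta1 and Actc1.
Trh: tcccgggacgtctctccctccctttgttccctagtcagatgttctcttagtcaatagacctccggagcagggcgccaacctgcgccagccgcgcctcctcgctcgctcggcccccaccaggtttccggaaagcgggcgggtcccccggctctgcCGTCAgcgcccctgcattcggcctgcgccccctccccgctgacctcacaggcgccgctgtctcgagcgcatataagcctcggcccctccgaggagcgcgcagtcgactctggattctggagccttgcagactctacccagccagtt
Nanog: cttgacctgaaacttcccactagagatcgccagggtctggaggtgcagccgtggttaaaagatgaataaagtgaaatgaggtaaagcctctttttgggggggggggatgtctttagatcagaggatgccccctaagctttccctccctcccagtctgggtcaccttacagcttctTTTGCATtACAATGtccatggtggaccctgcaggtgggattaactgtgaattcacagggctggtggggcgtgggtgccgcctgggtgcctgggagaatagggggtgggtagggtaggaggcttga
Cyp26a1: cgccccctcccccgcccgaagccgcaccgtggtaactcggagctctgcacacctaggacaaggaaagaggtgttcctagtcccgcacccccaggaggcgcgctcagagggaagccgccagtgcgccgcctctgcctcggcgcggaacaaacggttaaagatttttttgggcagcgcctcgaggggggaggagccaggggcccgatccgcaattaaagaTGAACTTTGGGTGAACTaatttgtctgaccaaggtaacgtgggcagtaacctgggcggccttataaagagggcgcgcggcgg
Acta1: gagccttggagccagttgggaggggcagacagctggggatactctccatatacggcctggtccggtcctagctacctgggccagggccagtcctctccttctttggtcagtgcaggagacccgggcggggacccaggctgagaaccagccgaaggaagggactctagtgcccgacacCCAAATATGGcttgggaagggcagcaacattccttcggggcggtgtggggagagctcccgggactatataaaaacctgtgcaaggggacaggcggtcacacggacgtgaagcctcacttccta
Actc1: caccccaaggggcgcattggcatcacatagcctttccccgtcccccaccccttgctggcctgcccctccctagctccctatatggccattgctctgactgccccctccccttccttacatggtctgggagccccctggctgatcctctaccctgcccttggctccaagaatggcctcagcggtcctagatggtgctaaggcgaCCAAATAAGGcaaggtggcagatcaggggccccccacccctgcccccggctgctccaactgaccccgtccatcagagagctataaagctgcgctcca

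A window was available for 79 members, for 10692 of the genes bright enough to be tested, as all members were, and for 27025 genes in all. Both strands were searched. TGACG lay in 21.5% of the members' windows, in 34.3% of those of tested genes and in 23% of all windows, and the copy in Trh began 96 bases before the start. In Nanog TTTGCAT and ACAATG began 75 and 67 bases before the start, and they lay in 3.8% and 10.1% of the members' windows, in 4.12% and 9.26% of those of tested genes and in 5.24% and 14.3% of all windows. The DR5 element began 32 bases before the start of Cyp26a1, the single member that holds it, and was found in 0.0281% of the windows of tested genes and in 0.0481% of all windows. The CArG box was found in 3 members, Acta1, Actc1 and Anxa5, which is 3.8%, in 1.54% of the windows of tested genes and in 1.81% of all windows. It began 73 bases before the start in Acta1 and 47 in Actc1. The AP-1 motif TGAGTCA lay in 10.1% of the members' windows, in 4.59% of those of tested genes and in 5.95% of all windows. The CArG box, the DR5 element, TTTGCAT and ACAATG were added to the search after the windows had been read. Their shares among the members are therefore not independent of that choice. These are matches of letters in short windows and carry no test.

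The untreated rises chose the members and are given as description. Their median was 1.98 log2 units in KO and 2.18 in WT, and the largest were 4.81 in KO and 5.54 in WT. The smaller of the 2 rises exceeded 2 in 42 members and 3 in 15. At 0 h 50 members had signals below 100 in both lines. The rise was larger in WT for 65 members, and for 66 members the lines lay within 0.5 of each other. Of all 13256 genes tested below, 1.61% rose by 1.5 or more in KO and 2.63% in WT.

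Genes of secreted peptides and proteins were among the members. Penk, the precursor of the enkephalins, had the highest value of the smaller rise, with signals at 0, 12, 24 and 36 h of 77.2, 311, 1097 and 2592 in KO and 84.4, 359.5, 1389 and 2226 in WT. The lines ran close together throughout. Trh (chromosome 6, 92242061 to 92244650) was the brightest of the strong risers, with 315, 4012, 5955 and 3061 in KO and 428, 4299.6, 7643 and 8659 in WT. It climbed steeply before 12 h in both lines and was lower at 36 h than at 24 h in KO. Ltb, the cytokine lymphotoxin beta, had 11.9, 26.7, 168 and 237 in KO and 6.11, 13.6, 198 and 588 in WT, and Csn3, kappa casein, had 71.5, 357, 523 and 873 in KO and 70.0, 294, 355 and 498 in WT. Ltb ended higher in WT and Csn3 in KO. On a list of neuropeptides, hormones and their receptors, 17 genes were bright enough to be tested. Penk and Trh were the 2 of these that rose by the threshold in both lines, and none fell by as much.

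Genes of signal release and reception were also present. Wls, the carrier that Wnt proteins need for secretion, had 114, 232, 605 and 1003 in KO and 113, 170.1, 530.1 and 1113 in WT. Sulf1, an extracellular sulfatase that edits heparan sulfate, had 198, 498, 861 and 1269 in KO and 198, 498, 1082 and 2077 in WT. Both ended higher in WT, Sulf1 more so. The BMP co-receptor gene Rgma was dim, with 22.5, 28.4, 109.9 and 190.0 in KO and 18.4, 46.9, 267 and 399 in WT. Kit, the receptor of stem cell factor, Cntfr, the receptor subunit for ciliary neurotrophic factor, and Lpar4, a receptor of lysophosphatidic acid, rose by 1.82, 1.53 and 1.93 in KO and by 1.54, 1.69 and 1.81 in WT.

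Nanog had 218, 1067, 1168 and 2006 in KO and 247, 776, 2369 and 3468 in WT. It was the single gene of 14 tested on a list of naive pluripotency that rose by the threshold in both lines, while 5 fell by as much in both. Car14, a membrane carbonic anhydrase on the list of primed epiblast genes, had 495, 1038, 2419 and 2487 in KO and 501, 803, 1898 and 1872 in WT. Car14 was the single one of 15 tested to rise by the threshold in both lines. Tdrd7, a Tudor domain protein of germ cell granules, had 22.0, 56.5, 175 and 239 in KO and 20.8, 41.6, 171 and 155 in WT.

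Genes of the actin cytoskeleton and of calcium-dependent membrane binding formed the best filled list. Of 22 measured, 5 were members (Acta1, Anxa3, Anxa5, Gsn and Tagln), and none of the 20 tested fell by the threshold in both lines. Acta1, skeletal muscle actin, had 15.8, 37.8, 125 and 239 in KO and 6.41, 45.3, 241 and 419 in WT. Tagln, the actin-binding protein transgelin, had 66.3, 93.7, 523 and 653 in KO and 38.1, 158, 695 and 1520.2 in WT. Actc1, cardiac actin, which is not on the list, had 40.2, 136, 369.6 and 662 in KO and 47.2, 224, 609 and 2336 in WT. All 3 ended higher in WT. Anxa3 and Anxa5, annexins, and Gsn, an actin-severing protein, rose by 1.56, 1.55 and 1.84 in KO and by 2.63, 2.41 and 1.79 in WT. Cracd, an inhibitor of actin capping, had 51.6, 156, 516 and 689.8 in KO and 60.1, 93.1, 294 and 461 in WT, and ended higher in KO. Cald1, caldesmon, Cfl2, the muscle cofilin, and Tgfb1i1, a focal adhesion adaptor, rose by 2.34, 2.58 and 1.77 in KO and by 1.91, 2.20 and 2.76 in WT.

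Among genes of adhesion and matrix, Frem2, a protein of basement membranes, had the largest rise in WT, with 24.3, 129, 437 and 630.3 in KO and 32.9, 120.3, 787 and 2257 in WT. Dsp, the desmosome protein desmoplakin, had 86.2, 244, 592 and 815 in KO and 85.0, 265, 596 and 1287 in WT. Prtg, a surface protein of the immunoglobulin family, had 385, 989, 2336 and 2721 in KO and 410.1, 1046, 2759 and 4182 in WT. In each of these genes the lines were close at 12 h and WT was higher at 36 h. Nrcam, a neuronal adhesion molecule, rose by 1.53 in KO and by 2.86 in WT.

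Regulators of transcription and chromatin were members as well. Zeb2, a zinc finger repressor known for its part in epithelial to mesenchymal transition, had 3.03, 13.7, 53.8 and 186 in KO and 9.06, 17.9, 105 and 284 in WT. Greb1l had 69.6, 282, 622 and 1663 in KO and 46.2, 223, 600.5 and 1342 in WT, and its paralog Greb1, known as a cofactor of the oestrogen receptor, rose by 1.63 in KO and by 2.64 in WT. Zeb2 and Greb1l were below 100 at 0 h in both lines, and their rises were 3.41 and 4.30 in KO and 3.58 and 4.45 in WT. The histone variant gene Macroh2a1, the Polycomb gene Phc2 and the chromatin remodeller gene Chd7 rose by 2.47, 1.79 and 2.09 in KO and by 2.97, 2.58 and 1.70 in WT. The transcription factor genes Ets1, Meis3, Tead1 and Zfp521 rose by 2.09, 1.95, 1.56 and 3.06 in KO and by 1.97, 2.38, 1.86 and 2.54 in WT.

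Enzymes of pyrimidine nucleoside metabolism were among the members. Cda, cytidine deaminase, had 101, 739, 1351 and 1075 in KO and 74.0, 304, 962 and 1038 in WT, and Upp1, uridine phosphorylase, had 282, 2304, 1746 and 2353 in KO and 286, 2385, 2837 and 4096 in WT. Both were early, with most of the rise made by 12 h. Glrx, a glutaredoxin, was slower, with 14.7, 36.0, 95 and 256 in KO and 9.71, 33.4, 64 and 252 in WT. Vwa5a had 43.4, 282, 324 and 501 in KO and 53.1, 276, 365 and 648 in WT. Plin2, a coat protein of lipid droplets, Fabp7, a fatty acid binding protein, and Pdia4, a disulfide isomerase of the endoplasmic reticulum, rose by 1.58, 2.44 and 2.80 in KO and by 2.11, 2.89 and 2.19 in WT. The imprinted gene Impact rose by 1.55 in KO and by 1.75 in WT. Cyp26a1 was the single member of 17 measured genes on a list of the retinoic acid response, with 41.6, 49.9, 42.2 and 156 in KO and 43.4, 44.9, 64 and 163 in WT. It was near its 0 h signal at 24 h in KO.

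**Figure D1:**
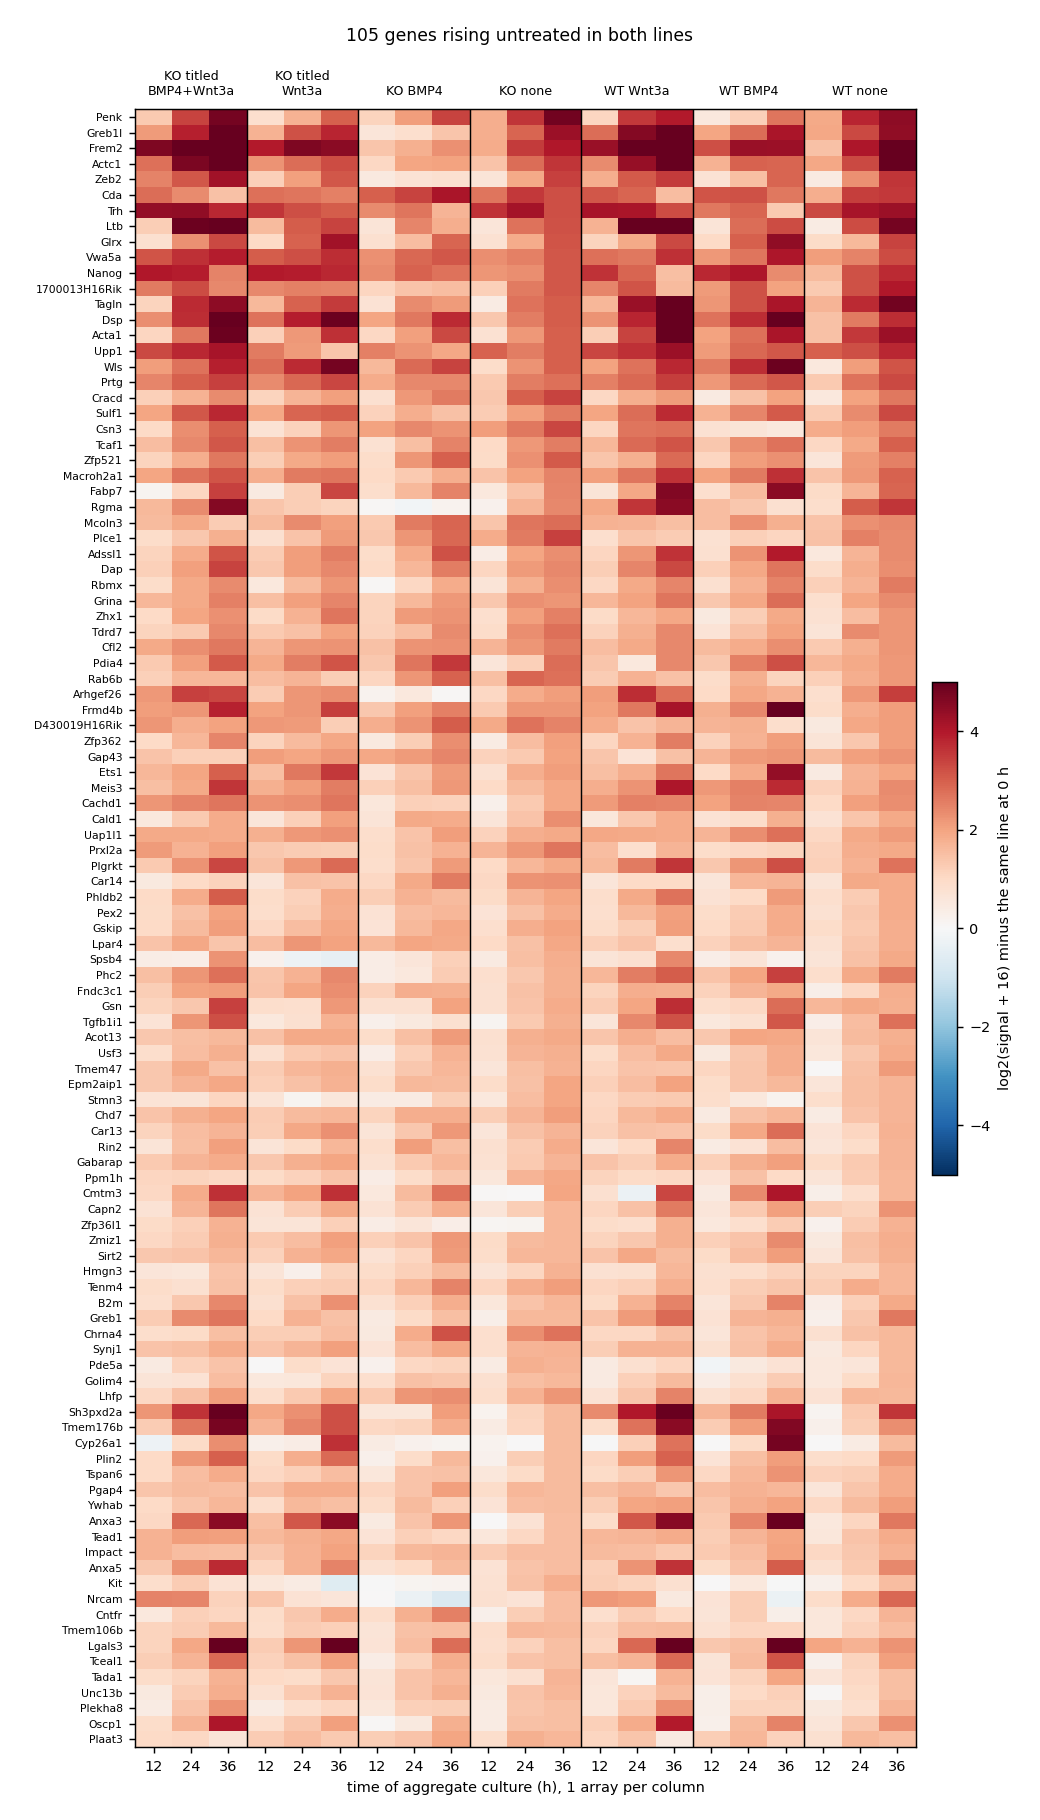
Log2(signal + 16) of the 105 members (rows) minus the same line's 0 h array, for 21 arrays (columns, at 12, 24 and 36 h within each condition), with the colour scale ending at 5 in either direction. The untreated columns are positive at 36 h by the choice of members, and at 36 h with cytokine 102 of the 105 members are above 0 h in all 5 conditions.

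The 12 and 24 h untreated arrays are read against the same 0 and 36 h arrays and are likewise described. All 105 members were above 0 h at 12 and at 24 h in both lines. The median member had covered 41.7% of its rise by 12 h in KO and 35.7% in WT, and 82.1% by 24 h in KO and 73.4% in WT. More than 50% was reached in both lines by 15 members at 12 h and by 93 at 24 h. Among the early ones, Trh had reached 112% in KO and 76.5% in WT at 12 h, Upp1 99% in KO and 79.4% in WT and Cda 83.5% in KO and 51.6% in WT. Among the late ones, Cyp26a1 had reached 0.915% in KO and 27% in WT at 24 h and Cmtm3 1.92% in KO and 49.3% in WT. Zfp36l1, which promotes mRNA decay, was late in 1 line, with 8.48% in KO and 73.4% in WT. The signal peaked at 24 h for 9 members in KO and for 7 in WT, and Plaat3 was in both sets. The 24 h KO array has a Gapdh ratio of 2.68, whose part in these shares was not tested.

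At the threshold, the members just inside were Unc13b, Plekha8, Oscp1 and Plaat3, with smaller rises of 1.508, 1.506, 1.505 and 1.504. The genes just outside were Vopp1, Fabp3, Pdzrn3 and Antxr1, with 1.499, 1.496, 1.493 and 1.493.

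**Figure D2:**
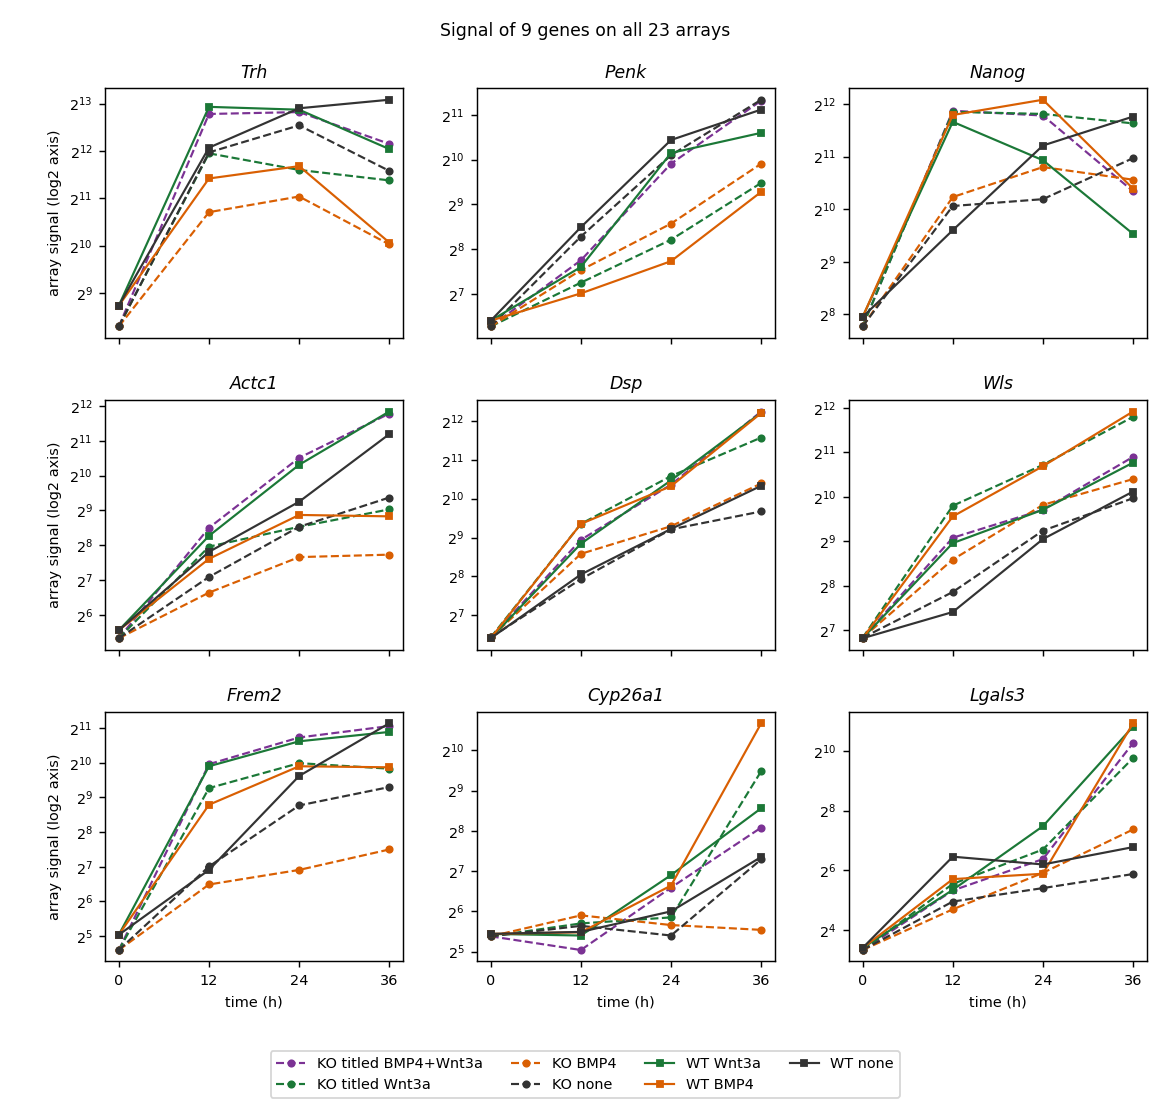
Array signal (log2 axis) of 9 members against time in hours on all 23 arrays, 1 point per array, with KO dashed, WT solid and colour for the condition. Dsp and Wls climb in every condition, Trh under cytokines is lowest at 36 h after 12 and 24 h, and Cyp26a1 ends at 46.5 in KO with BMP4 and at 1629 in WT with BMP4.

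Whether the members also rise under cytokines was tested on the 15 arrays with BMP4, Wnt3a or both, none of which gave the 2 differences of the rule. Most did. From 12 to 36 h 81 of the 105 members were higher, which is 77.1%, and 4 were lower (limma, Benjamini-Hochberg adjusted p under 0.05), where 15.7% of the 13256 genes tested were higher and 17.8% lower. The median difference was 0.88 for the members and -0.03 for all genes, and 77 members were higher in all 5 conditions. All 105 had passed the filter on dim genes. The counts and the median include 4 members, named below, that passed the minimum signal of the rule only through cytokine arrays. The 5 conditions stand in for replicates, so the p-values measure the spread between these conditions. With values as deposited the median of all genes was 0.09, 26.3% of genes were higher and 9.05% lower, and 84 members were higher and 3 lower. After median centring 21.6% of genes were higher and 11.1% lower, and again 84 members were higher and 3 lower. Genes of the primitive streak and mesoderm moved at the same time, with 17 of 28 tested higher and 1 lower, none of them a member. Their part in the members' change was not tested.

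Lgals3, Cmtm3, Cyp26a1 and Ets1 passed the minimum signal of the rule only through cytokine arrays, so their change on these arrays is given as values with no test. Of the other 101 members 77 were higher, which is 76.2%, and 4 lower. Lgals3, the lectin galectin-3, had 26, 60.5 and 165 in KO with BMP4, 46.9, 104 and 867 in KO titled Wnt3a, 40.2, 83.3 and 1226 in KO titled BMP4+Wnt3a, 52.3, 59.3 and 1938 in WT with BMP4 and 40.8, 179 and 1795 in WT with Wnt3a at 12, 24 and 36 h. It was highest at 36 h in every condition, with a mean difference between 36 and 12 h of 3.92.

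Cytoskeletal members rose under cytokines too. Acta1 had 49.2, 115 and 294 in KO with BMP4, 56.1, 127 and 388 in KO titled Wnt3a, 51.3, 182 and 942 in KO titled BMP4+Wnt3a, 74.5, 133 and 362 in WT with BMP4 and 37.0, 219.8 and 1136 in WT with Wnt3a. It increased at each step in every condition, with a mean difference between 36 and 12 h of 2.87 ± 0.28, adjusted p = 3.10e-05 (SE, 5 conditions). Anxa3 and Tagln were higher at 36 h in 5 of 5 conditions (2.96 ± 0.24, adjusted p = 8.29e-06 for Anxa3 and 2.24 ± 0.29, adjusted p = 1.73e-04 for Tagln). On the cytoskeletal list 15 tested genes are not members. Of these 7 were higher, which is 46.7%, against 15.7% of all genes (26.3% with values as deposited), and none was lower. They were Acta2, Anxa1, Anxa2, S100a6, S100a10, Tpm1 and Vim. Among list genes that are not members, the share higher ran from 0% to 60.7% over the other lists, highest for primitive streak and mesoderm.

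Dsp reached 1342, 3040.3 and 4837 at 36 h in KO with BMP4, titled Wnt3a and titled BMP4+Wnt3a, and 4705 and 4738 in WT with BMP4 and with Wnt3a (2.56 ± 0.21, adjusted p = 8.45e-06). It was lowest in KO with BMP4. Of the 32 other tested genes on the epithelial list 7 were higher and 10 lower. With Dsp, and with values as deposited, 9 were higher and 6 lower. Fabp7, Ltb, Glrx and Penk rose by 2.93, 2.57, 2.55 and 2.44, each in 5 of 5 conditions. Wls and Rbmx, an RNA-binding protein, had the smallest adjusted p among members (1.79 ± 0.10, adjusted p = 5.64e-07 for Wls and 1.43 ± 0.08, adjusted p = 5.64e-07 for Rbmx).

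Cyp26a1 was uneven among conditions, with 59.7, 50.6 and 46.5 in KO with BMP4, 52.0, 57.7 and 714 in KO titled Wnt3a, 32.9, 96.3 and 271 in KO titled BMP4+Wnt3a, 44.6, 99.7 and 1629 in WT with BMP4 and 42.2, 119 and 377 in WT with Wnt3a. It did not exceed its 12 h signal in KO with BMP4, while 36 h was the highest time in the other 4 conditions. The mean difference was 2.52. Of the 14 other tested genes on the retinoic acid list 3 were higher, which is 21.4% and near the share of all genes, and 1 was lower.

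The 4 members that fell from 12 to 36 h were Nrcam, Nanog, Trh and Kit. Trh had 1675, 2106 and 1046 in KO with BMP4, 3956, 3104 and 2665 in KO titled Wnt3a, 7033, 7231 and 4545 in KO titled BMP4+Wnt3a, 2740.1, 3281 and 1075 in WT with BMP4 and 7804, 7486 and 4211 in WT with Wnt3a. All of these exceed its 0 h signals, and 36 h was the lowest time in each condition (-0.94 ± 0.15, adjusted p = 5.88e-04, lower in 5 of 5). Nanog had 1201, 1783 and 1509.7 in KO with BMP4, 3692, 3591 and 3169 in KO titled Wnt3a, 3743, 3517 and 1296 in KO titled BMP4+Wnt3a, 3541, 4329.5 and 1342 in WT with BMP4 and 3236, 1951 and 739 in WT with Wnt3a. KO with BMP4 was the exception, with more at 36 than at 12 h (-1.13 ± 0.28, adjusted p = 0.00838). Nrcam (-1.21 ± 0.20, adjusted p = 8.14e-04) and Kit (-0.50 ± 0.15, adjusted p = 0.0197) were lower in 5 of 5 conditions after quantile normalisation, although the deposited signal of Kit in KO with BMP4 was higher at 36 h, with 263, 296 and 309 at 12, 24 and 36 h. Trh kept its call under every alternative tried, and Nrcam, Nanog and Kit each lost theirs under at least 1. Of the 13 other tested genes of the naive list 5 were lower, which is 38.5%, and 1 higher.

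The other 20 members were not called. Cda had a difference of -0.67 ± 0.29, adjusted p = 0.0918 and Upp1 of 0.09 ± 0.27, adjusted p = 0.828. Rgma differed widely between conditions, with 24.1, 19.4 and 27.7 in KO with BMP4, 85.0, 74.5 and 67.6 in KO titled Wnt3a, 103, 179.8 and 910.2 in KO titled BMP4+Wnt3a, 83.3, 71.5 and 44.6 in WT with BMP4 and 115, 388 and 776 in WT with Wnt3a. It ended highest in KO titled BMP4+Wnt3a and in WT with Wnt3a, and below 100 in the other 3 conditions (0.86 ± 0.44, adjusted p = 0.157).

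**Figure D3:**
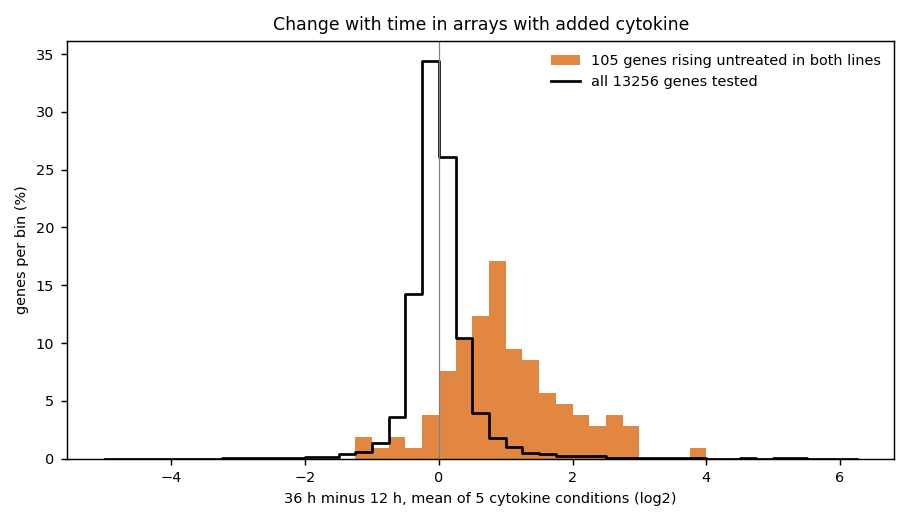
Percent of genes per bin of 0.25 by the difference between 36 and 12 h (log2, mean of 5 cytokine conditions), for the 105 members (bars) and all 13256 genes tested (line). The members have a median of 0.88 and all genes of -0.03. The bars include Lgals3, farthest right at 3.92, Cmtm3, Cyp26a1 and Ets1, which passed the minimum signal of the rule only through cytokine arrays.

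The level at 36 h with cytokine was also set against 0 h, as description, since the 0 h arrays are shared with the rule. The rise was at least 1.5 for 84 members in KO with BMP4, where 2.13% of all tested genes rose as far, and for 82 in KO titled Wnt3a (3.14% of all), 89 in KO titled BMP4+Wnt3a (5.11%), 83 in WT with BMP4 (4.44%) and 88 in WT with Wnt3a (5.32%). It was at least 1.5 in all 5 conditions for 58 members. Nrcam, Kit and Spsb4, an adaptor of ubiquitin ligases, fell short of 0 h in at least 1 condition, with lowest differences of -0.72, -0.60 and -0.39.

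The effect of each cytokine on the members was tested at 12 and 24 h against untreated arrays of the same line. Comparisons within a line share their untreated arrays, and the 2 times stand in for replicates. Differences are means in log2 units with their SE, from limma with Benjamini-Hochberg adjustment.

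In KO titled BMP4+Wnt3a 20 members were higher and 4 lower, where 2.9% of all genes were higher and 2.84% lower (3.23% and 1.73% with values as deposited). Frem2 had 996 and 1698 at 12 and 24 h, against 129 and 437 untreated (2.35 ± 0.38, adjusted p = 0.00475). Sh3pxd2a, a scaffold of podosomes, had 246 and 680.3 against 48.2 and 107 (2.23 ± 0.31, adjusted p = 0.00201), and Nrcam 617 and 592 against 179.8 and 164 (1.66 ± 0.28, adjusted p = 0.00589). In all 3 genes both treated arrays lay above both untreated ones. The share lower, 3.81% of the members, is near that of all genes. Nanog, Actc1 and Anxa3 had differences of 1.65, 1.59 and 1.55. Those lower were Plce1, a phospholipase C, Car14, Rab6b, a Golgi GTPase, and Tenm4, a teneurin, with -1.11, -0.95, -0.81 and -0.62. The members called numbered 5 without the titled 24 h array, 6 without the untreated 24 h array, which has the Gapdh ratio of 2.68, and 13 without the untreated 12 h array. Calls held under every alternative for 4 of the 24 (Cachd1, Frem2, Plce1 and Sh3pxd2a).

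In KO titled Wnt3a 20 members were higher and 6 lower, where 4.49% of all genes were higher and 4.63% lower. Anxa3 had 167 and 537, against 49.9 and 91.8 untreated (1.89 ± 0.33, adjusted p = 0.00555). Nanog had 3692 and 3591 against 1067 and 1168 (1.68 ± 0.36, adjusted p = 0.0146), and Wls 891 and 1687 against 232 and 605 (1.64 ± 0.17, adjusted p = 2.82e-04). None of these overlapped. Frem2 and Cachd1, a relative of calcium channel subunits, had differences of 1.66 and 1.48. Without the members that only cytokine arrays admitted, 18 were higher and 6 lower. Csn3 was lower, with 127 and 179.8 against 357 and 523 (-1.44 ± 0.34, adjusted p = 0.0228), and so was Penk, with 152 and 296 against 311 and 1097 (-1.42 ± 0.37, adjusted p = 0.0342). Plce1, Spsb4, Golim4, a Golgi protein, and Car14 had -1.13, -1.0, -0.63 and -0.63. The share lower, 5.71% of the members, is near that of all genes. The members called numbered 14 and 4 without the untreated arrays at 12 and 24 h, and 7 and 8 without the titled arrays at 12 and 24 h. Calls held under every alternative for 4 of the 26 (Cachd1, Dsp, Plce1 and Wls).

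In KO with BMP4 no member was higher (limma, with 7 at an unadjusted p under 0.05, which is 6.67%, against 5.81% of all genes) and 3 were lower, where 0.302% of all genes were higher and 0.362% lower (0.166% and 0.309% with values as deposited). Trh had 1675 and 2106, against 4012 and 5955 untreated (-1.35 ± 0.20, adjusted p = 0.0127). Greb1l had 113 and 137 against 282 and 622 (-1.64 ± 0.31, adjusted p = 0.0429), and Kit 263 and 296 against 474 and 776 (-1.06 ± 0.20, adjusted p = 0.0379). None of the 3 overlapped. No call was left without either 24 h array, and 1 without the untreated 12 h array. None of the 3 calls held under every alternative.

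In WT with Wnt3a 11 members were higher and 1 lower, where 1.28% of all genes were higher and 0.739% lower (1.47% and 0.43% with values as deposited). Sh3pxd2a had 292 and 949, against 50.6 and 133 untreated (2.42 ± 0.31, adjusted p = 0.00271), and Frem2 955 and 1574 against 120.3 and 787 (1.86 ± 0.38, adjusted p = 0.0293). Neither overlapped. Arhgef26, Wls, Greb1 and Dsp had differences of 1.32, 0.99, 0.94 and 0.92, and Plce1 of -0.90. The Wnt3a array at 24 h has the Gapdh ratio of 4.03. The members called numbered 1 without that array and 4 without the untreated 12 h array. They numbered 0 when both 24 h arrays of high Gapdh ratio, this one and untreated KO, were left out. None of the 12 calls held under every alternative.

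In WT with BMP4 9 members were higher and 4 lower, where 1.29% of all genes were higher and 1.49% lower (1.05% and 1.89% after median centring). Wls had 755 and 1652, against 170.1 and 530.1 untreated (1.87 ± 0.17, adjusted p = 1.30e-04). Nanog had 3541 and 4329.5 against 776 and 2369 (1.52 ± 0.36, adjusted p = 0.0469), and neither gene overlapped. Sh3pxd2a, Dsp, Meis3 and Fndc3c1 had differences of 1.49, 1.2, 0.95 and 0.79. Penk was lower, with 129 and 212 against 359.5 and 1389 (-2.00 ± 0.37, adjusted p = 0.0137), as were Plce1, Trh and Gsn with -1.02, -0.88 and -0.80. After median centring 5 members were higher and 4 lower. The members called numbered 5 without the untreated 12 h array, and 6 and 4 without the BMP4 arrays at 12 and 24 h. Calls held under every alternative for 3 of the 13 (Fndc3c1, Meis3 and Wls), so that Penk, Nanog, Dsp and Sh3pxd2a each lost theirs under at least 1.

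**Figure D4:**
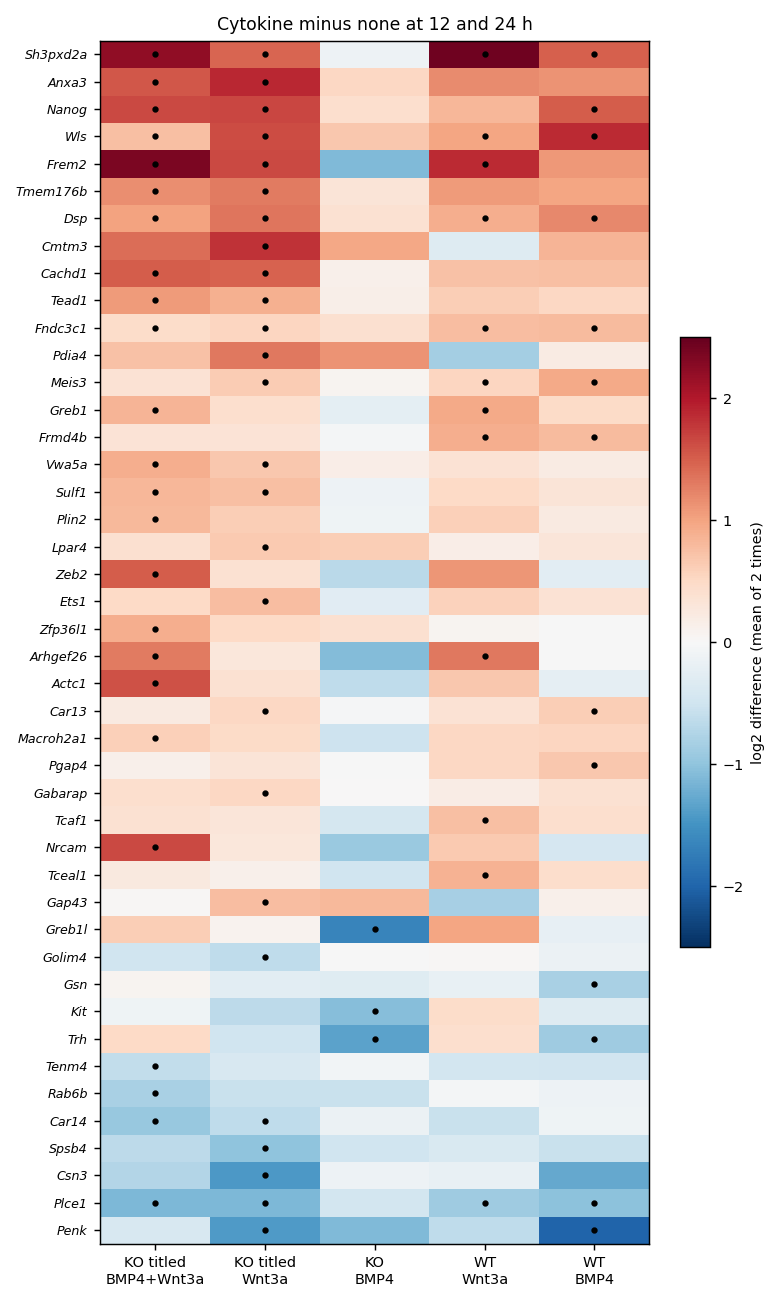
Difference between each cytokine condition and none (colour, log2, mean of 12 and 24 h) for the 44 members called in some comparison, with a dot where the adjusted p was under 0.05. Columns of a line share their untreated arrays, and the values run from -2.00 for Penk in WT with BMP4 to 2.42 for Sh3pxd2a in WT with Wnt3a among those called.

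Between the untreated lines at 12 and 24 h no member was called in either direction (limma), where 0.0377% of all genes were higher and 0.249% lower. At an unadjusted p under 0.05 16 members were higher in KO, which is 15.2% against 8.11% of all genes, and 7 lower, which is 6.67% against 7.14%. The smallest adjusted p was that of Cachd1, with 286 and 617 in KO against 523 and 1113 in WT (-0.88 ± 0.19, adjusted p = 0.0859), and its lines overlapped. The rule asks for a rise in both lines, which bears on this comparison.

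With BMP4 the lines were compared over 12, 24 and 36 h. In KO 5 members were higher and 21 lower, where 4.27% of all genes were higher and 3.16% lower. Frem2 had 89.9, 120.3 and 181 in KO, against 443, 955 and 936 in WT (-2.5 ± 0.14, adjusted p = 1.59e-06). Cachd1 had 357, 560.3 and 549 against 1067, 1509.7 and 1458 (-1.48 ± 0.10, adjusted p = 6.48e-06), and Phc2 468, 526 and 879 against 923, 1379.6 and 3743 (-1.51 ± 0.19, adjusted p = 6.18e-04). In these 3 genes every KO array was below every WT array. Sh3pxd2a had 67.2, 66.7 and 221 in KO against 179.8, 347 and 1017 in WT, which overlapped, though KO was lower at each time (-1.92 ± 0.28, adjusted p = 0.0015). Greb1l, Anxa3, Arhgef26, Zeb2, Dsp, Nrcam and Wls had differences of -1.62, -1.55, -1.49, -1.43, -1.24, -1.19 and -1.15.

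The members higher in KO with BMP4 were Csn3, Cntfr, Plce1, Lhfp and Tenm4. Csn3 had 335, 446 and 405 in KO, against 129, 119 and 108 in WT, with no overlap (1.55 ± 0.37, adjusted p = 0.0264). Cntfr had 198, 391 and 662 against 152, 237 and 115, and the lines parted most at 36 h (1.06 ± 0.29, adjusted p = 0.0426). Plce1, Lhfp and Tenm4 had differences of 0.98, 0.75 and 0.71. These 5 are 4.76% of the members, near the share of all genes. The members called numbered 12 without the KO 24 h array, and 16 and 17 without the WT arrays at 24 and 36 h. Anxa3, Arhgef26, Cachd1, Frem2, Macroh2a1, Phc2, Plce1, Sh3pxd2a and Wls kept their calls under every alternative tried.

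Whether the response to BMP4 differed between the lines was tested at 12 and 24 h. No member passed (limma), where 0.106% of all genes were higher and 0.113% lower. At an unadjusted p under 0.05 the response of 7 members was higher in KO, which is 6.67% against 3.21% of all genes, and that of 30 was lower, which is 28.6% against 3.8%. The response of Wls was 0.67 in KO and 1.87 in WT (-1.2 ± 0.24, adjusted p = 0.0994 for the difference), and that of Frem2 was -1.11 in KO and 1.08 in WT (-2.19 ± 0.54, adjusted p = 0.225). The same test between the titled Wnt3a response in KO and the Wnt3a response in WT called no member (limma), where 0.166% of all genes were higher and 0.083% lower. At an unadjusted p under 0.05 7 members were higher, which is 6.67% against 6.46% of all genes, and 17 lower, which is 16.2% against 7.44%. By their array names these KO arrays also had BMP4, so the test may not set Wnt3a against Wnt3a. With the titles exchanged, none of the 13256 genes was called, members included.

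**Figure D5:**
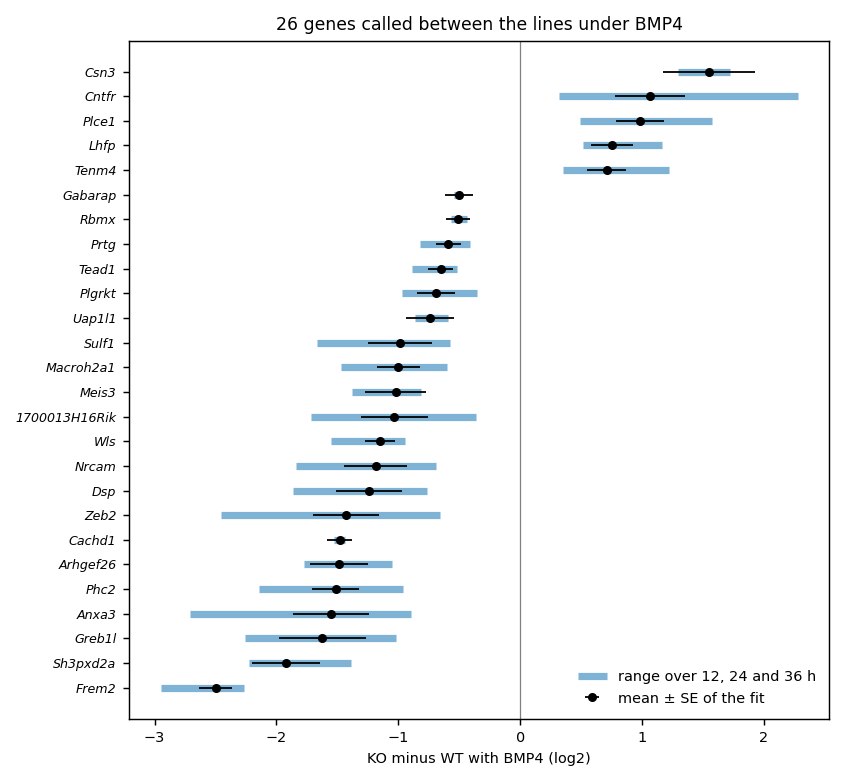
Difference between KO and WT with BMP4 (log2) for the 26 members called, as the mean with its SE (points, thin lines) and the range over 12, 24 and 36 h (thick lines). All 3 times lie on the same side of 0 for each member, with means from -2.5 for Frem2 to 1.55 for Csn3.

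Markers of other cell types differed between the untreated 36 h arrays on which the rule rests. The 5 mesoderm markers summed to 233 in KO and 2148 in WT, against 313 in KO and 285 in WT at 0 h, through Eomes and Mixl1, while Mesp1, Tbx6 and Kdr were below 50 in both lines. The 9 endoderm markers summed to 508 in KO and 1568 in WT, against 626 in KO and 617 in WT at 0 h. Foxa2 gave 41.6 in KO and 1160 in WT at 36 h, where Afp and Ttr were below 15. The 7 trophoblast markers summed to 253 in KO and 579 in WT, against 382 in KO and 385 in WT at 0 h. Of these Tfap2c gave 95 in KO and 416 in WT at 36 h. Cdx2, Elf5, Hand1, Gata3 and Ascl2 were at 23.1 or below in both lines at 36 h. The 5 neural markers summed to 4502 in KO and 3486 in WT, against 2632 in KO and 2578 in WT at 0 h. Feeder fibroblast markers, 5 in number, summed to 846 in KO and 330 in WT, against 921 in KO and 805 in WT at 0 h. Of these lists 1 marker, the neural gene Sox1, rose by the threshold in both lines. The part of such cells in the members' rises was not tested, and in whole aggregates more cells of a type and more RNA per cell cannot be told apart.

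Other probe sets gave another reading of some members. Of the 105 members 62 have more than 1 probe set, and 39 of these 119 other probe sets exceeded a signal of 200 on some array. Of the 39, 38 were up in both lines and 21 by at least 1.5 in both. The exception was a probe set of Ywhab, with differences of -0.59 in KO and -0.30 in WT. Another probe set of Cachd1, with signals up to 1082, rose by 0.58 in KO and by 2.15 in WT. Phc2 and Zfp362 on chromosome 4 lay closest together among the members, 20204 bases apart.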

How the data were processed

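Signals of 45101 probe sets on 23 arrays were used as deposited. They are linear intensity values, with the steps by which the authors made them not given in the sources used here. Of the probe sets 34958 name a single gene, and the one with the highest mean stood for each gene. Groups follow the sample titles. Members, gene lists and markers were chosen with earlier results of these data known, so a list's direction is not independent evidence.

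Values were quantile-normalised as log2(signal + 16), and 13256 genes above the array median on at least 3 arrays were fitted with limma 3.58.1 (R 4.3.3) with a trended prior and Benjamini-Hochberg adjustment over all of them. One fit held the 15 cytokine arrays (condition and time, 8 residual degrees of freedom), another the 14 arrays at 12 and 24 h (6). Simulated data were used to try the change with time in the first fit and BMP4 against none in WT in the second. The other comparisons were not simulated. The 2 tests of a difference in response were added after seeing the data. Named genes were Trh, the 20 members of largest smaller rise, those at the threshold, up to 6 per test and direction, and members on lists; others were named for their role after their values were seen. Without replicates, the number of arrays limits the precision. Figures used matplotlib 3.10.9.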

Additional observations from a re-analysis of the deposited data

How the results depend on the processing

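Direction held in every alternative for every member called, except Rbmx between the lines with BMP4, whose difference was 0.035 with the mean of all probe sets. On quantile-normalised values, the scale of the tests, the rule chose 80 members, all of them among the 105. It chose 145 with log2(signal + 1), 60 with log2(signal + 64) and 62 with the mean of all probe sets. With differences of at least 1 it chose 356, with at least 2 it chose 42, and with 24 h in place of 36 h it chose 57. Without a filter 6 members were called for BMP4 in WT, 1 for BMP4 in KO and 15 for KO titled Wnt3a. With the mean of all probe sets the calls were 6 for Wnt3a in WT, 1 for BMP4 in KO, 14 for KO titled Wnt3a and 14 for KO titled BMP4+Wnt3a. BMP4 in KO had 1 call without a trend. Array weights gave 44 between the lines with BMP4, 7 for BMP4 in WT and 2 for Wnt3a in WT, and a fit of all 21 later arrays gave 2 for Wnt3a in WT. The 3 arrays whose Gapdh ratio was highest were also left out, though untreated WT at 36 h was in none of these fits. The calls were then 0 for Wnt3a in WT, 0 for BMP4 in KO, 6 for KO titled Wnt3a and 7 for KO titled BMP4+Wnt3a. The BMP4 response differed for 1 member with values as deposited and for 1 after median centring. Leaving out 1 array, or 1 condition for the change with time, gave 78 to 86 calls with time, 12 to 33 between the lines with BMP4, 0 to 1 between untreated lines, 4 to 18 for BMP4 in WT, 1 to 17 for Wnt3a in WT, 0 to 2 for BMP4 in KO, 4 to 14 for KO titled Wnt3a, 5 to 17 for KO titled BMP4+Wnt3a, 0 to 3 for the BMP4 response and 0 to 7 for the titled Wnt3a response. Without the 6 arrays of conflicting labels 68 members were called with time. Exchanging the titles exchanged 26 and 24 calls. Some of these fits held fewer arrays or another number of genes, and the cause of the changes was not tested. No paired analysis was possible because the replicate numbers stand for the times, which every fit already holds as a factor. Probe sets near the floor of 1 limit what dim members can show.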
